A study of Mus musculus with 16 samples.

Results

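Serine, one-carbon and asparagine synthesis was followed through 9 enzyme transcripts in 6DT1 cells, a mouse mammary cancer line. The enzymes were chosen by name, with earlier results of these data known. They were Phgdh, Psat1 and Psph of serine synthesis, the serine hydroxymethyltransferases Shmt1 and Shmt2, the folate enzymes Mthfd1, Mthfd2 and Mthfd1l, and asparagine synthetase, Asns. All 9 were found among the 25745 genes of the count file, and all 9 passed the filter on low counts. RNA was sequenced from 16 libraries in 4 groups of 4, from cells carrying a lentivirus with an empty vector (libraries 13 to 16 with H2O2, libraries 9 to 12 untreated) or a lentivirus to express CLIC4 (libraries 5 to 8 with H2O2, libraries 1 to 4 untreated). H2O2 was given at 1 uM for 24 h, and the strain of all groups is labelled FVB/N1. In the descriptions of the samples, empty-vector libraries are termed CLIC4-Knockout and CLIC4-lentivirus libraries wildtype cells. The labels do not say whether a group is 1 clone, or whether its libraries came from separate cultures, so a p-value here measures the spread between libraries, which may be technical. The study addressed the role of CLIC4, a chloride intracellular channel family protein, in the resistance of these cells to oxidants.

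Cells make serine from a glycolytic intermediate: Phgdh oxidises 3-phosphoglycerate, Psat1 transfers an amino group from glutamate, and Psph removes the phosphate. Shmt1 in the cytosol and Shmt2 in mitochondria split serine into glycine and a carbon unit that is carried by tetrahydrofolate. In mitochondria Mthfd2 oxidises that carbon unit and Mthfd1l releases it as formate, which the cytosolic enzyme Mthfd1 takes up again for purine and thymidylate synthesis. Asns makes asparagine from aspartate and glutamine. In mammalian cells several of these genes, Asns, Psat1, Phgdh, Shmt2 and Mthfd2 among them, are known to be switched on by Atf4, a transcription factor of the amino acid and integrated stress responses.

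One untreated empty-vector sample, library 11, differed from the other 15 libraries. Its highest correlation with a library of its own group was 0.926 on log2(CPM + 1), where CPM is the count scaled to library size. The lowest correlation of any other pair within a group was 0.998. Of 12321 genes at 1 CPM or more, library 11 exceeded the mean of libraries 9, 10 and 12 by 2-fold or more in 2488 and lay under it by as much in 2734. It held 53.6 M counts, inside the range of 47.1 to 61.9 M over all libraries. Structural RNA genes took 0.0882% of its counts, against 0.000341 to 0.00103% in the other 15 libraries, and the part of this in its values was not tested. Levels and tests of the enzymes are therefore given with and without it, and profiles across libraries without it alone. The targeted gene, Clic4, was lower with the empty vector, the direction of both the vector labels and the sample descriptions, though its transcript was not absent. Clic4 had 11.2 ± 0.633 FPKM (fragments scaled to gene length and library size) in H2O2-treated empty-vector cells and 63.2 ± 3.24 FPKM in H2O2-treated CLIC4-lentivirus cells (SD, n = 4 each). In untreated cells it had 11.2 ± 0.536 FPKM with the empty vector without library 11 (n = 3), 25.39 FPKM in library 11, and 58.8 ± 2.84 FPKM with the CLIC4 lentivirus (n = 4).

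Of the 6 epithelial markers, Krt8, Krt18 and Krt19 were high in all groups, Krt7 was listed at 0 in all empty-vector libraries and at up to 0.23 FPKM in CLIC4-lentivirus libraries, and Epcam and Cdh1 stayed at or under 0.26 FPKM except for 6.08 FPKM of Epcam in 1 untreated empty-vector library. The epithelial signal thus rests on keratins here, and the labelled mammary origin was not tested by these markers. The summed level of the epithelial list was 650 to 720 FPKM in H2O2-treated and 652 to 804 FPKM in untreated empty-vector libraries, library 11 included. In CLIC4-lentivirus libraries it was 370.0 to 406 FPKM. Krt8 alone ranged from 152.7 to 372.5 FPKM in untreated empty-vector libraries, and the lowest of these values was below every CLIC4-lentivirus library. The immune list summed to 224 to 262 FPKM with the empty vector and 76.1 to 92.9 FPKM with the CLIC4 lentivirus, nearly all of it Cd68, a lysosomal membrane protein, while Ptprc and Adgre1 stayed at or under 0.03 FPKM. The endothelial list summed to 1.00 to 2.00 FPKM with the empty vector and 21.3 to 23.0 FPKM with the CLIC4 lentivirus, nearly all of it Cdh5, and the fibroblast list summed to 3.00 to 5.19 FPKM over all groups. Within that sum the 5 fibroblast markers tested were called in both directions in untreated cells (Pdgfra 1.89 and Col1a2 2.33 higher, Col1a1 -1.35 and Dcn -4.20 lower, log2 with 16 libraries, and Lum lower, listed at 0 FPKM in each of libraries 9 to 12), and in the same directions with H2O2 and without library 11. Mitochondrially encoded transcripts took 2.33 to 2.99% of counts in H2O2-treated and 1.102 to 1.46% in untreated empty-vector libraries without library 11 (3.04% in library 11), against 1.198 to 2.64% and 1.32 to 3.42% in H2O2-treated and untreated CLIC4-lentivirus libraries. The part of these differences in the enzyme results was not tested. In bulk RNA, fewer cells with a transcript and less of it per cell cannot be told apart.

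The 9 enzyme transcripts were all higher on average in empty-vector cells than in CLIC4-lentivirus cells, with and without H2O2, and none was called lower. Mthfd2 differed most, by about 3 log2 units, followed by Asns by about 2 log2 units, Shmt2 and Psat1. The cytosolic enzymes Shmt1 and Mthfd1, and Phgdh, Psph and Mthfd1l, differed by less than 1 log2 unit. So did Psat1 with H2O2 (0.89) and untreated without library 11 (0.88), while untreated with 16 libraries it was at 1.08. H2O2 moved none of the 9 past the threshold in either vector. A gene was called where edgeR's quasi-likelihood test gave a Benjamini-Hochberg adjusted p under 0.05 over all genes tested (14445 with 16 libraries, 14602 without library 11).

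With H2O2, 6 of 9 enzymes were called higher with the empty vector and 0 lower in the fit of 16 libraries, where 22.1% of all genes tested were called higher and 20% lower. Without library 11 the count was 9 of 9 higher, where 36.6% of all genes were called higher and 37.2% lower. In untreated cells 7 of 9 were called higher and 0 lower with 16 libraries (29% and 24.3% of all genes), and 9 of 9 without library 11 (37% and 37.3% of all genes). The median log2 change of the 9 was 0.62 with H2O2, against -0.01 over all genes, in both fits. Untreated it was 0.59 with 16 libraries (all genes 0.03) and 0.60 without library 11 (all genes -0.02). Library 11 is not in the H2O2-treated groups and enters that test through the shared estimate of the spread. The biological coefficient of variation over all genes was 23.1% with it and 5.28% without it.

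**Figure D1:**
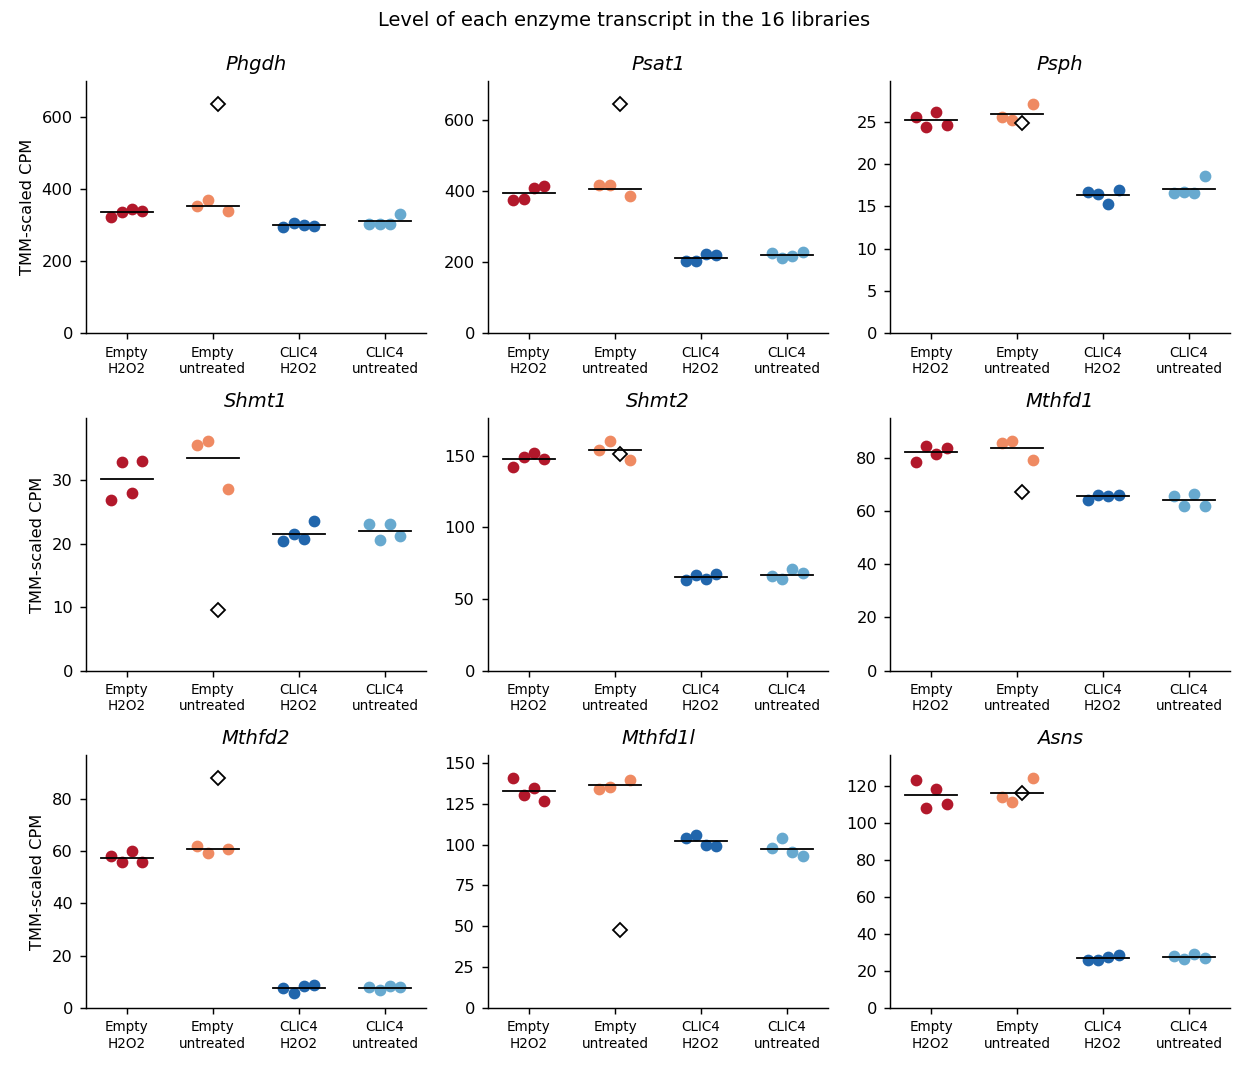
Level of each enzyme transcript in every library, in CPM scaled by edgeR's TMM factors (linear axes from 0). Points are libraries, the open diamond is library 11, and each line is the group mean without library 11. For Mthfd2 the empty-vector libraries lie between 55.7 and 88.0 CPM and the CLIC4-lentivirus libraries between 5.52 and 8.80 CPM.

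Asns and Mthfd2 showed the largest differences, and their RefSeq promoter windows are printed for that reason. RefSeq windows (GRCm38.p6, 250 bases before to 50 after the gene's start, 5′ to 3′ on the gene's strand) matched 9 of 9 enzymes in 10 windows. Capitals mark TGATGNAA, the core of the composite element that Atf4 binds with C/EBP proteins, searched on both strands. The Asns window is chr6:7693160-7693459 and the Mthfd2 window is chr6:83317555-83317854, both on the minus strand. Neither start is a transcript start in GENCODE vM21: the RefSeq start is base 7693209 for Asns and base 83317604 for Mthfd2, both inside the GENCODE gene spans given with each gene.
Asns: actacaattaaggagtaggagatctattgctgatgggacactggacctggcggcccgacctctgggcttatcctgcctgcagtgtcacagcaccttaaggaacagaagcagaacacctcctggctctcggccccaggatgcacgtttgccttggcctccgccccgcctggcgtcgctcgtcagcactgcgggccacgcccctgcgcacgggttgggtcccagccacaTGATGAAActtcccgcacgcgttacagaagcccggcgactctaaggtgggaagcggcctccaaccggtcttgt
Mthfd2: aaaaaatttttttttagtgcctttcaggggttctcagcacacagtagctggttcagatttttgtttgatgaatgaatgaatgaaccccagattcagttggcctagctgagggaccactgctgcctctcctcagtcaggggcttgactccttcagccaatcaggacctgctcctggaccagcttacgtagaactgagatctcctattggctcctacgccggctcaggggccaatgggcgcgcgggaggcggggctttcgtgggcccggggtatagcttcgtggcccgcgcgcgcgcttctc
The Asns window holds 1 match, TGATGAAA, on the gene's strand from position -23 to -16 relative to the start. The Mthfd2 window and the windows of the other enzymes hold none in these letters, so 1 of 10 windows has the motif, against 3.97% of all 32851 promoter windows of the same length. The E-box CACGTG, the letters that Myc proteins bind, was in 0 of 10 windows and in 7.15% of all windows. A match is a description of the letters only. The RefSeq starts of Phgdh, Psph, Mthfd1 and Mthfd1l are not GENCODE vM21 transcript starts either, while those of Psat1, Shmt1 and Shmt2 are. Sequence outside these windows was not searched, so a missing match concerns the windows alone.

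Phgdh (chr3:98313170-98339990, mm10), the entry enzyme of serine synthesis, was the most abundant of the 9 per length in all groups and differed little between vectors. With H2O2 its level was 322.6, 336.4, 345.5 and 339.4 CPM in empty-vector libraries 13 to 16, against 295.4, 307.2, 299.6 and 298.5 CPM in CLIC4-lentivirus libraries 5 to 8. Untreated, it was 354.3, 370.4, 636.7 and 340.3 CPM in empty-vector libraries 9 to 12, against 304.9, 303.5, 303.2 and 332.5 CPM in CLIC4-lentivirus libraries 1 to 4. The vectors did not overlap in either condition, and library 11 was the highest of all. With H2O2 the log2 change was 0.16 ± 0.15 (SE; adjusted p = 0.428, not called) with 16 libraries and 0.16 ± 0.03 (adjusted p = 0.000267) without library 11. For untreated cells the change was 0.45 ± 0.15 (adjusted p = 0.0221) with 16 libraries and 0.19 ± 0.04 (adjusted p = 0.00011) without library 11, a fold of 1.37 against 1.14. Fitted on the 2 untreated groups alone, library 11 included, Phgdh was not called (0.46, adjusted p = 0.135).

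Psat1 (chr19:15904678-15947337), the transaminase of the pathway, had 374.3, 376.3, 409 and 415.1 CPM in H2O2-treated empty-vector libraries, against 202.5, 202.1, 224.5 and 219.1 CPM in H2O2-treated CLIC4-lentivirus libraries. Untreated, it had 417.2, 416.8, 644.4 and 386.4 CPM with the empty vector, against 226.5, 211.1, 217.6 and 229 CPM with the CLIC4 lentivirus. Every empty-vector library was above every CLIC4-lentivirus library, and library 11 again was the highest. With H2O2 the fold was 1.86 in both fits (95% interval 1.74 to 1.98, adjusted p = 4.94e-13 without library 11). For untreated cells the fold was 2.11 (1.75 to 2.55, adjusted p = 7.73e-06) with 16 libraries and 1.84 (1.72 to 1.97, adjusted p = 1.91e-12) without library 11.

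Psph (chr5:129765558-129787449), the phosphatase of the last step, was the least abundant of the serine synthesis enzymes. It ranged from 24.3 to 26.2 CPM with the empty vector and from 15.3 to 17.0 CPM with the CLIC4 lentivirus under H2O2, and from 24.9 to 27.1 CPM and 16.6 to 18.6 CPM in untreated cells. The log2 change was 0.62 ± 0.06 with H2O2 (adjusted p = 2.22e-06) and 0.59 ± 0.06 in untreated cells (adjusted p = 3.63e-06), and without library 11 it was 0.62 ± 0.05 and 0.60 ± 0.05. On the FPKM scale library 11 had 12.61 FPKM of Psph, inside the range of 12.28 to 13.80 FPKM of untreated CLIC4-lentivirus cells, while the other 3 untreated empty-vector libraries had 18.16 to 19.12 FPKM. Exons of Psph overlap Cct6a on the opposite strand in GENCODE vM21, and without the strand setting of the counting their reads cannot be told apart.

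Shmt2 (chr10:127517123-127522444), the mitochondrial serine hydroxymethyltransferase, had 142, 149, 151.9 and 147.3 CPM in H2O2-treated empty-vector libraries, against 63.1, 66.9, 63.8 and 67.6 CPM in H2O2-treated CLIC4-lentivirus libraries. The untreated levels were 153.6, 160.1, 151.3 and 147.2 CPM with the empty vector, against 66.0, 63.6, 70.5 and 68.0 CPM with the CLIC4 lentivirus. The vectors were far apart, and in CPM library 11 lay among its group. In FPKM library 11 had 57.31 FPKM of Shmt2, below the 77.69 to 82.45 FPKM of libraries 9, 10 and 12 and above all CLIC4-lentivirus libraries. The fold was 2.26 with H2O2 (95% interval 2.09 to 2.44, adjusted p = 2.99e-10) and 2.28 untreated (2.12 to 2.46, adjusted p = 2.62e-10), and 2.26 and 2.29 without library 11.

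Shmt1 (chr11:60788104-60811718), its cytosolic counterpart, had 26.8, 32.9, 27.99 and 33.0 CPM in H2O2-treated empty-vector libraries, against 20.3, 21.5, 20.7 and 23.5 CPM in H2O2-treated CLIC4-lentivirus libraries. Untreated, it had 35.6, 36.1, 9.49 and 28.6 CPM with the empty vector, against 23.14, 20.6, 23.15 and 21.2 CPM with the CLIC4 lentivirus. Library 11 was the lowest of all 16 libraries, below every CLIC4-lentivirus library, and the other empty-vector libraries were above them all. Shmt1 was not called with 16 libraries, at 0.49 ± 0.28 log2 with H2O2 (adjusted p = 0.183) and 0.32 ± 0.28 untreated (adjusted p = 0.344). Without library 11 it was called higher, at 0.49 ± 0.08 (adjusted p = 6.41e-05) and 0.60 ± 0.09 (adjusted p = 1.39e-05). Exons of Shmt1 overlap Smcr8, and those of Shmt2 overlap Ndufa4l2, each on the opposite strand, with the same limit as for Psph.

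Mthfd2 (chr6:83305691-83325908), the mitochondrial dehydrogenase and cyclohydrolase that is known for its high expression in embryonic and tumour cells and low expression in most adult tissues, gave the widest separation. With H2O2 it had 58.3, 55.8, 60.0 and 55.7 CPM in empty-vector libraries, against 7.72, 5.52, 8.40 and 8.80 CPM in CLIC4-lentivirus libraries. Untreated, it had 62.0, 59.5, 88.0 and 60.9 CPM with the empty vector, against 7.84, 6.65, 8.19 and 7.91 CPM with the CLIC4 lentivirus. These levels rest on 3153 to 3652 counts a library with the empty vector and 306 to 553 counts with the CLIC4 lentivirus. The fold was 7.55 with H2O2 (95% interval 5.98 to 9.52, adjusted p = 2.58e-09) and 8.84 untreated (6.99 to 11.2, adjusted p = 1.38e-09). Without library 11, in which Mthfd2 was 1.45 times the mean of libraries 9, 10 and 12 in CPM, the folds were 7.53 (6.54 to 8.67) and 7.97 (6.87 to 9.23). In FPKM library 11 had 34.94, only 1.03 times the mean of those libraries.

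Mthfd1l (chr10:3973118-4167081), the mitochondrial enzyme that releases formate, had 140.8, 130.7, 134.7 and 126.7 CPM in H2O2-treated empty-vector libraries, against 104.3, 106.1, 100.03 and 99.5 CPM in H2O2-treated CLIC4-lentivirus libraries. In untreated cells it had 134.3, 135.3, 47.7 and 139.7 CPM with the empty vector, against 98.2, 104.3, 95.2 and 92.8 CPM with the CLIC4 lentivirus. Library 11 had 0.349 times the mean of its 3 group mates and lay below every CLIC4-lentivirus library. With 16 libraries the log2 change was 0.38 ± 0.23 with H2O2 (adjusted p = 0.213) and 0.23 ± 0.23 untreated (adjusted p = 0.417), both not called. Without library 11 it was 0.38 ± 0.04 (adjusted p = 2.04e-08) and 0.48 ± 0.04 (adjusted p = 1.72e-09).

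Mthfd1 (chr12:76255298-76319803), the trifunctional cytosolic enzyme, showed a small difference. It ranged from 78.5 to 84.5 CPM with the empty vector and from 64.2 to 66.1 CPM with the CLIC4 lentivirus under H2O2. Untreated, the range was 79.2 to 86.2 CPM in empty-vector libraries 9, 10 and 12, with 66.9 CPM in library 11, and 61.9 to 66.3 CPM with the CLIC4 lentivirus. The log2 change was 0.33 ± 0.07 with H2O2 (adjusted p = 0.00183) and 0.31 ± 0.07 untreated (adjusted p = 0.00212), and 0.33 ± 0.03 and 0.39 ± 0.04 without library 11. Tested with limma on log2(FPKM + 1) over 16 libraries, neither difference of Mthfd1 was called (0.33, adjusted p = 0.0702 with H2O2; 0.22, adjusted p = 0.199 untreated). Without library 11 the same limma test called both (0.33, adjusted p = 4.32e-06; 0.41, adjusted p = 1.08e-06). In FPKM library 11 had 16.85 FPKM, below the 20.53 to 23.05 FPKM of untreated CLIC4-lentivirus cells. Exons of Mthfd1 overlap the antisense gene Gm47525.

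Asns (chr6:7675169-7693254), which makes asparagine, had 123.6, 108.4, 118.4 and 110.5 CPM in H2O2-treated empty-vector libraries, against 25.8, 26.1, 27.3 and 28.3 CPM in H2O2-treated CLIC4-lentivirus libraries. Untreated, it had 114.2, 111.4, 116.3 and 124.5 CPM with the empty vector, against 27.8, 26.5, 29.4 and 27.1 CPM with the CLIC4 lentivirus. The vectors were widely apart, and in CPM library 11 was within the range of its group mates, while in FPKM it had 46.97, below their 64.44 to 72.38. The fold was 4.28 with H2O2 (95% interval 3.90 to 4.71, adjusted p = 5.5e-12) and 4.21 untreated (3.83 to 4.62, adjusted p = 5.65e-12), and 4.28 and 4.22 without library 11.

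**Figure D2:**
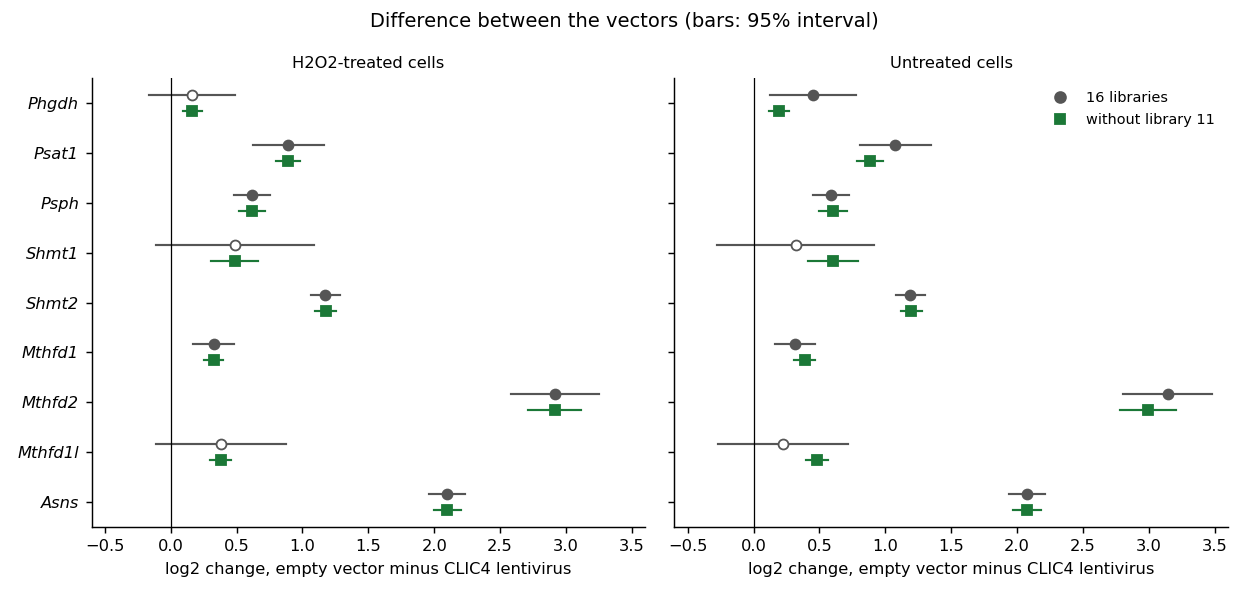
Log2 change of each enzyme, empty vector minus CLIC4 lentivirus, in H2O2-treated cells (left) and untreated cells (right), from edgeR with 16 libraries (circles) and without library 11 (squares). Bars are 95% intervals and filled symbols were called. All 9 squares are filled in both panels, from 0.16 for Phgdh to 2.91 for Mthfd2 with H2O2 and from 0.19 to 2.99 untreated.

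Per length, the enzymes had a different order in the cells of each vector. With H2O2, the mean levels in empty-vector cells were 206.8 FPKM for Phgdh, 170.7 for Psat1, 77.4 for Shmt2, 67.04 for Asns, 40.4 for Mthfd1l, 32.2 for Mthfd2, 28.9 for Mthfd1, 17.7 for Psph and 14.6 for Shmt1. In CLIC4-lentivirus cells with H2O2 they were 182.1 FPKM for Phgdh, 90.3 for Psat1, 33.6 for Shmt2, 30.5 for Mthfd1l, 22.7 for Mthfd1, 15.4 for Asns, 12.1 for Psph, 10.0 for Shmt1 and 4.23 for Mthfd2. Mthfd2 was thus the least abundant of the 9 with the CLIC4 lentivirus and above Mthfd1, Psph and Shmt1 with the empty vector, and Asns stood at the fourth place with the empty vector and at the sixth with the CLIC4 lentivirus. The order in untreated cells was the same within each vector without library 11. Neighbours in these orders did not overlap between libraries, except Psph (18.16 to 19.12 FPKM) and Shmt1 (13.83 to 18.34 FPKM) in untreated empty-vector cells. With library 11 the neighbours from Shmt2 to Asns and from Mthfd2 to Shmt1 overlapped in that group.

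Ratios of the mitochondrial to the cytosolic enzyme within a library, in FPKM, were compared next. Mthfd2 over Mthfd1 was 1.12 ± 0.0717 in empty-vector cells and 0.187 ± 0.0356 in CLIC4-lentivirus cells with H2O2 (SD, n = 4 each). In untreated cells it was 1.16 ± 0.0625 with the empty vector without library 11 (n = 3; 2.07 in library 11) and 0.192 ± 0.0105 with the CLIC4 lentivirus (n = 4). Shmt2 over Shmt1 was 5.34 ± 0.554 with the empty vector and 3.36 ± 0.189 with the CLIC4 lentivirus under H2O2, and 5.01 ± 0.568 without library 11 (14.8 in library 11) and 3.599 ± 0.280 in untreated cells. For both ratios every empty-vector library was above every CLIC4-lentivirus library. Mthfd1l over Mthfd1 overlapped between the vectors, at 1.40 ± 0.113 and 1.34 ± 0.0457 with H2O2 and at 1.42 ± 0.101 (0.595 in library 11) and 1.32 ± 0.107 untreated. No test was made on these ratios. They depend on the length scaling: in CPM, without it, Mthfd2 over Mthfd1 was 0.701 with the empty vector and 0.116 with the CLIC4 lentivirus under H2O2, and 0.728 without library 11 and 0.119 untreated, with 1.31 in library 11. The vectors were separate on both scales, while the ratio lay above 1 in CPM in library 11 alone. Mthfd2l (Mthfd2-like), of the folate list, is not in these ratios and went the other way in the fit of 16 libraries. Untreated, library 11 included, it had 9.15 FPKM with the empty vector and 11.3 FPKM with the CLIC4 lentivirus. EdgeR called it lower there (log2 -0.18, adjusted p = 0.0324). With H2O2 it had 9.185 and 10.1 FPKM and was not called (-0.12, adjusted p = 0.185). In CLIC4-lentivirus cells its mean FPKM was above that of Mthfd2 in both conditions.

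**Figure D3:**
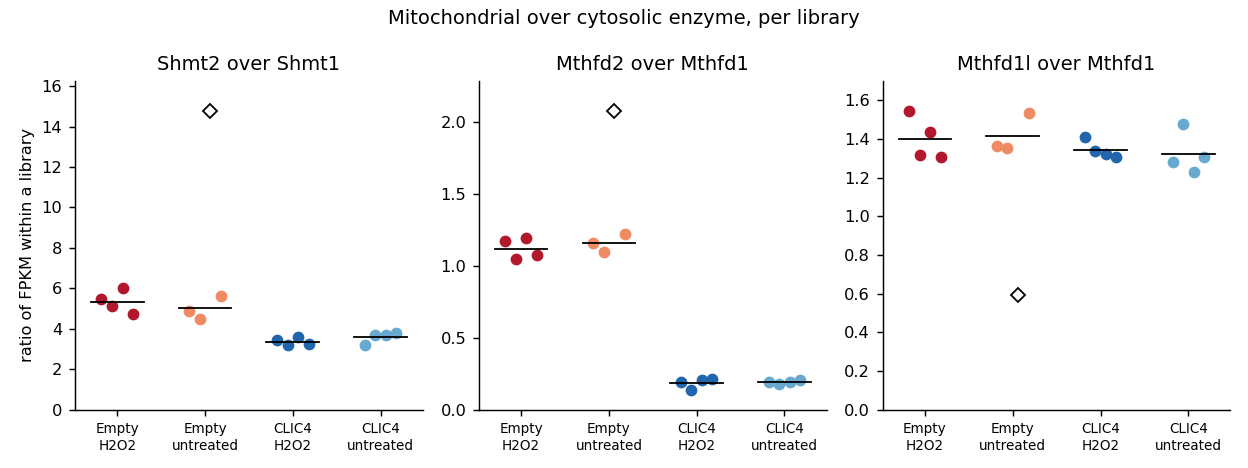
Ratio of FPKM of the mitochondrial over the cytosolic enzyme in each library (linear axes from 0), Mthfd2l not included. Points are libraries, the open diamond is library 11, and each line is the group mean without library 11. On this scale Mthfd2 over Mthfd1 lies above 1 in all empty-vector libraries and below 0.212 in all CLIC4-lentivirus libraries, while Mthfd1l over Mthfd1 overlaps.

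No difference between H2O2-treated and untreated cells passed the test for any of the 9 transcripts. In empty-vector cells 0 of 9 were called, with log2 changes (H2O2 minus untreated) between -0.34 and 0.22 with 16 libraries and between -0.15 and -0.02 without library 11. The background was 0% of all genes with 16 libraries and 0.24% without library 11. In CLIC4-lentivirus cells 0 of 9 were called in either fit (0% of all genes in both), with log2 changes between -0.06 and 0.07. Without library 11 the 95% intervals of all 9 lay within 0.5 log2 units of 0 in both vectors, reaching -0.34 for Shmt1 and 0.10 for Mthfd2 in empty-vector cells, and -0.23 and 0.23 for Mthfd2 in CLIC4-lentivirus cells. With 16 libraries 4 of 9 intervals lay within those limits in empty-vector cells and 7 of 9 in CLIC4-lentivirus cells, with bounds reaching -0.66 for Phgdh and 0.73 for Shmt1 with the empty vector and -0.63 and 0.56 for Shmt1 with the CLIC4 lentivirus.

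Of the 9, Phgdh alone had an unadjusted p under 0.05 in edgeR's test of H2O2, and in empty-vector cells alone. Its log2 change there was -0.34 ± 0.15 (SE, adjusted p = 0.339) with 16 libraries and -0.08 ± 0.04 (adjusted p = 0.349) without library 11, not called in either fit. Over all genes, 2120 had an unadjusted p under 0.05 for H2O2 in empty-vector cells and 255 in CLIC4-lentivirus cells with 16 libraries, and 1994 and 2135 without library 11. DESeq2 with 16 libraries called 27 genes higher and 11 lower with H2O2 in empty-vector cells and 0 higher and 1 lower in CLIC4-lentivirus cells, with none of the 9 among them. Without library 11 DESeq2 called 212 higher and 211 lower in empty-vector cells, with none of the 9. In CLIC4-lentivirus cells it called 88 higher and 198 lower, again with none of the 9. For the difference of the responses it called 1 higher and 14 lower with 16 libraries. Without library 11 it called 82 higher and 475 lower, with no enzyme called in either fit. For that difference DESeq2 gave Psph and Shmt1 no adjusted p with or without library 11, and Mthfd2 lacked it in part of these fits. All these DESeq2 fits held 25745 genes, so the share called was small and 0 of 9 is near it. The responses of the vectors were also compared directly. The difference of the log2 changes, empty vector minus CLIC4 lentivirus, was between -0.29 and 0.17 with 16 libraries and between -0.12 and 0.02 without library 11, and 0 of 9 were called (0% of all genes with 16 libraries, 0.192% without library 11). Without library 11 its intervals lay between -0.38 and 0.22, both bounds from Mthfd2. With 16 libraries they reached from -0.75 for Phgdh to 1.01 for Shmt1.

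**Figure D4:**
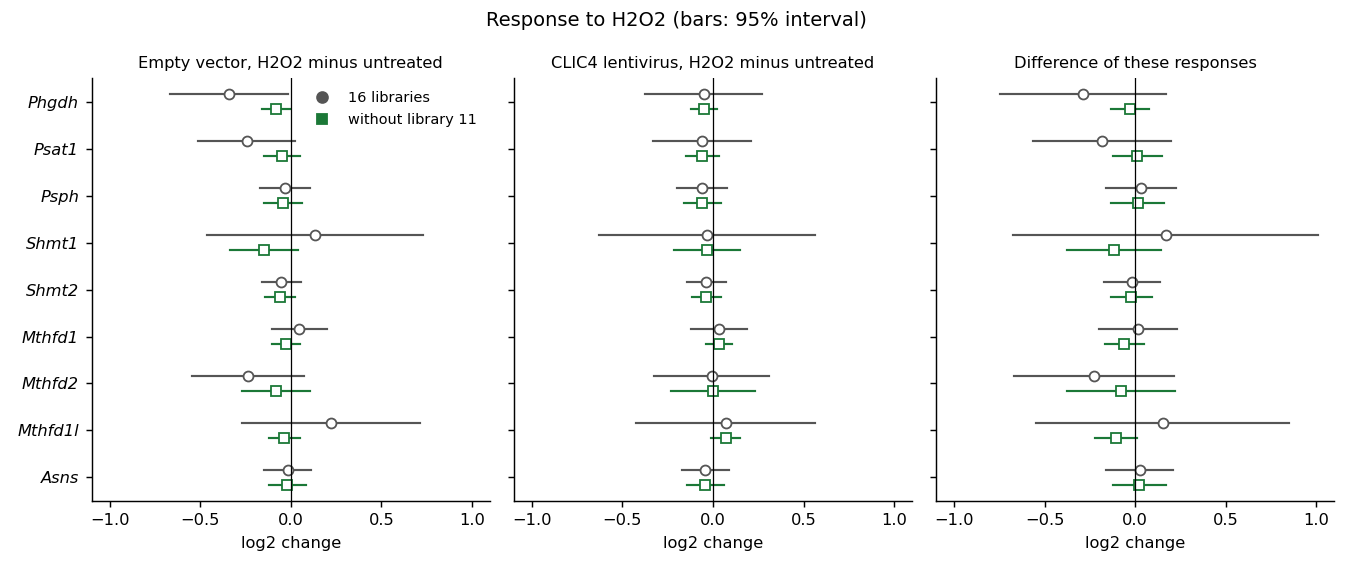
Log2 change of each enzyme with H2O2 in empty-vector cells (left), in CLIC4-lentivirus cells (middle), and the difference of these responses, empty vector minus CLIC4 lentivirus (right). Circles are the fit of 16 libraries and squares the fit without library 11, bars are 95% intervals, and open symbols were not called. Every symbol is open, and all bars without library 11 stay within 0.5 log2 units of 0.

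Genes of the neighbouring pathways, from lists chosen by function with earlier results of these data known, moved in both directions between the vectors. The genes named below are the up to 4 of each list with the smallest adjusted p in untreated cells without library 11, and log2 changes (empty vector minus CLIC4 lentivirus) and FPKM are from that comparison, n = 3 and 4, with the log2 change with 16 libraries after it. These counts stand beside 20 to 29% of all genes called in each direction with 16 libraries and 36.6 to 37.3% without library 11, and several lists lie near those shares. Of 12 listed genes of glycine cleavage and serine use 9 were tested: with H2O2, 3 were called higher and 1 lower with 16 libraries (3 and 3 without library 11), and untreated 3 and 3 (4 and 5). The median of this list was 0.04 with H2O2 and -0.14 untreated without library 11. Cth, which makes cysteine from cystathionine, had 8.12 ± 0.558 FPKM with the empty vector and 0.892 ± 0.102 FPKM with the CLIC4 lentivirus (log2 3.15; 2.96 with 16 libraries). Sdsl, a serine dehydratase-like gene, had 3.64 ± 0.257 and 0.575 ± 0.0580 FPKM (2.52; 2.21 with 16 libraries). Gcat, of threonine and glycine metabolism, was higher by 0.45 (0.75 with 16 libraries), and Sptlc1, a subunit of the enzyme that joins serine to palmitoyl-CoA, was lower at -0.27 (-0.44 with 16 libraries).

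Of 17 genes of folate uptake and turnover 15 were tested. With H2O2, 4 were called higher and 3 lower with 16 libraries (7 and 4 without library 11), and untreated 5 and 4 (9 and 5), with medians of 0.10 and 0.17 without library 11. Aldh1l2, the mitochondrial formyltetrahydrofolate dehydrogenase, had 11.5 ± 2.94 FPKM with the empty vector and 1.495 ± 0.164 FPKM with the CLIC4 lentivirus (log2 3.02; 2.88 with 16 libraries). Ggh and Mthfs were lower. Ggh, the hydrolase that shortens folate polyglutamates, had 1.97 ± 0.257 FPKM with the empty vector and 19.2 ± 1.77 FPKM with the CLIC4 lentivirus (-3.32; -3.47 with 16 libraries), and Mthfs, which returns formyltetrahydrofolate to the pool, had 7.07 ± 0.865 and 14.5 ± 0.285 FPKM (-1.08; -1.25 with 16 libraries).

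Of 10 methionine cycle genes 7 were tested, with 1 higher and 1 lower with H2O2 with 16 libraries (2 and 2 without library 11) and 1 and 1 untreated (4 and 2). Ahcyl1 (log2 0.70) and Ahcy (0.20) were higher and Mat2b (-0.42) and Ahcyl2 (-0.31) lower without library 11, and with 16 libraries Ahcyl1 was at 1.03 and Mat2b at -0.48, while Ahcy (0.07) and Ahcyl2 (0.06) were not called. All 8 listed genes of purine synthesis, which uses formate and glycine, were tested, with 2 higher and 1 lower with H2O2 (6 and 1 without library 11) and 1 and 0 untreated (6 and 1). Pfas (0.72), Gart (0.53), Prps1 (0.45) and Atic (0.36) were higher in untreated cells without library 11, and with 16 libraries none of these 4 was called in untreated cells (0.43, 0.33, 0.27 and 0.18). The purine list had medians of 0.22 with H2O2 and 0.30 untreated without library 11, and the methionine list 0.03 and 0.16.

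All 12 genes of asparagine, glutamine, glutamate and proline metabolism other than Asns were tested, with 6 higher and 3 lower with H2O2 (7 and 3 without library 11) and 7 and 3 untreated in both fits, and medians of 0.15 and 0.18 without library 11. Aldh18a1, the first enzyme of proline synthesis from glutamate, had 42.7 ± 0.517 FPKM with the empty vector and 19.4 ± 0.423 FPKM with the CLIC4 lentivirus (log2 1.096; 0.89 with 16 libraries). Got1, the cytosolic aspartate aminotransferase, had 85.7 ± 2.51 and 46.3 ± 1.06 FPKM (0.85; 1.19 with 16 libraries). Glul, which makes glutamine, had 41.7 ± 1.38 and 70.8 ± 2.46 FPKM (-0.82; -0.64 with 16 libraries), and Gpt, an alanine aminotransferase, had 5.49 ± 0.693 and 12.2 ± 0.303 FPKM (-1.50; -1.37 with 16 libraries).

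Of 11 transcriptional and stress regulators of amino acid synthesis all were tested, with 2 higher and 1 lower with H2O2 (7 and 2 without library 11) and 5 and 1 untreated (7 and 2), and medians of 0.41 and 0.45 without library 11. Atf4 had 88.5 ± 5.52 FPKM in empty-vector cells and 53.2 ± 3.30 FPKM in CLIC4-lentivirus cells with H2O2, a log2 change of 0.71 ± 0.43 (adjusted p = 0.212) with 16 libraries and 0.72 ± 0.05 (adjusted p = 6.69e-10) without library 11. In untreated cells Atf4 had 89.1 ± 5.85 FPKM with the empty vector without library 11, 324.2 FPKM in library 11 and 55.5 ± 2.10 FPKM with the CLIC4 lentivirus, a log2 change of 1.68 (adjusted p = 0.00577) with 16 libraries and 0.64 (adjusted p = 8.35e-09) without library 11. Myc, a transcription factor of growth genes, went the other way in library 11, which had 83.5 FPKM against 430.5 to 456 FPKM in libraries 9, 10 and 12. Myc had 445 ± 13.1 FPKM in untreated empty-vector cells without library 11 and 326 ± 15.8 FPKM in untreated CLIC4-lentivirus cells (log2 0.45, adjusted p = 1.89e-09), and it was not called with 16 libraries (0.15, adjusted p = 0.66). Myc was also the only regulator called with H2O2 in empty-vector cells without library 11 (0.23, adjusted p = 0.0352). Whether Atf4 or Myc acts on the enzymes in these cells was not tested. Trib3, a pseudokinase induced by Atf4, and Eif2ak3, the kinase PERK, were higher by 0.98 and 0.50 in untreated cells without library 11. With 16 libraries Trib3 was at 0.79 and Eif2ak3 at 1.08, and with H2O2 Eif2ak3 was called only without library 11 (0.41 in both fits, adjusted p = 0.271 with 16 libraries and 2.27e-09 without).

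**Figure D5:**
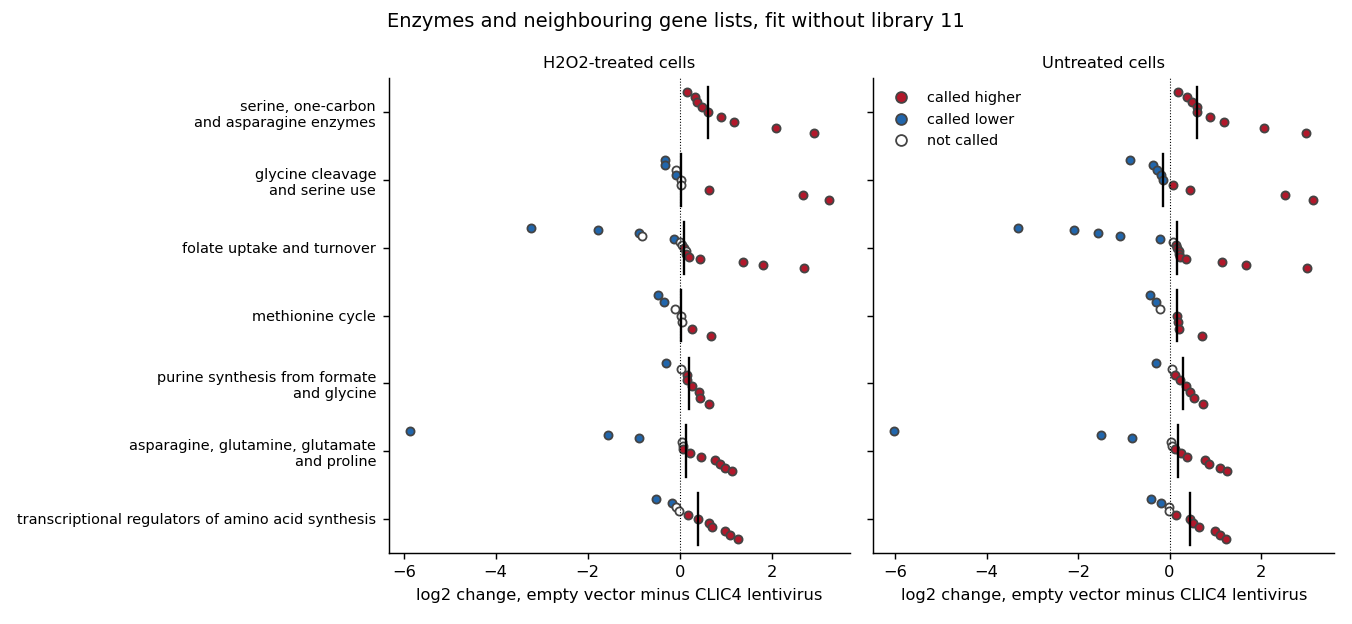
Log2 change, empty vector minus CLIC4 lentivirus, of each tested gene in the 9 enzymes and 6 neighbouring lists, with H2O2 (left) and untreated (right), in the fit without library 11. Each point is a gene, red called higher, blue called lower and open not called, and the vertical bar is the list's median. The 9 enzymes are all red with medians of 0.62 and 0.60, while each of the other lists holds points on both sides of 0. All lists were chosen with earlier results of these data known, so this contrast is a description only.

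Profiles over the 15 libraries other than library 11 were compared among 9803 genes by the root mean square difference of centred log2 CPM, in which libraries share depth and vector. The genes nearest to Mthfd2 were Spry4 (0.119 log2 units) and Etv4 (0.124), and those nearest to Asns were Plk3 (0.0761) and Dnm1 (0.0859). Mthfd2 and Asns had each other as the nearest enzyme of the 9, at 0.455 log2 units. Those genes were nearer, but they were picked from 9803 and the enzymes from 9, so the distances cannot be compared. Shmt2 was nearest to Lmna (0.0439) and Eps8 (0.0469), Psat1 to Ints11 (0.0458) and Cyp4f16 (0.0481), and Shmt2 and Psat1 were each other's nearest among the 9 (0.161). Mthfd1 was nearest to Mcmbp (0.0161) and Ssrp1 (0.0253), and Mthfd1l to P3h1 (0.0371) and Sec63 (0.0390), and these enzymes were also each other's nearest (0.0887). Phgdh was nearest to Aimp2 (0.0328) and Polr1e (0.0345), Psph to Zfand2a (0.0493) and Hax1 (0.0532), and Shmt1 to Wee1 (0.0722) and Sephs2 (0.0791).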

How the data were processed

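RNA sequencing of 16 libraries of 6DT1 cells was analysed. Counts per gene and FPKM values were deposited by the authors; reads were processed with cutadapt, STAR and RSEM on mm10, per the submitters' processing notes. For the annotation, strand setting and versions, nothing is stated in the sources used here. The deposited counts are whole numbers, which RSEM estimates are not, so rounding may have preceded deposit. FPKM values, as deposited by the authors, were used for levels between genes and for alternatives.

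Counts were fitted with edgeR 4.0.16 (R 4.3.3; TMM, filterByExpr, 1 coefficient for each group, robust quasi-likelihood test), with Benjamini-Hochberg adjustment over all genes tested and a threshold of 0.05, with 16 libraries and without library 11. Standard errors were taken from the log2 change and the F statistic, and 95% intervals use the test's degrees of freedom. The script was tested on simulated data. Alternatives used RLE factors, no filter, 10 CPM in 4 libraries, DESeq2 1.42.0, limma 3.58.1 on log2(FPKM + 1) or log2(FPKM + 0.1) with a filter of 0.5 FPKM in 4 libraries or none, voom with library weights, the compared groups alone, and each library left out. Totals were 47.1 to 61.9 M counts. No libraries of a group were duplicates: their counts differed by at least 5.05 times sampling noise (chi-square per degree of freedom). Groups came from sample titles.

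The members, the neighbouring lists and the marker lists were chosen with earlier results of these data known. Beside the members, Atf4, Myc, Clic4 and Mthfd2l, the genes named were up to 4 of each neighbouring list by adjusted p in untreated cells without library 11, and for each member the 2 genes of nearest profile (average log2 CPM of at least 2). One gene that this choice names is not reported here. Promoter sequences are from RefSeq, GRCm38.p6, and gene positions from GENCODE vM21, mm10. Figures were drawn with matplotlib 3.10.9.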

Additional observations from a re-analysis of the deposited data

Results flagged for a closer look

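Within groups of 4 libraries, 6 of the 36 sets of values (9 enzymes in 4 groups, TMM-scaled CPM) held a library far from the other 3. Chance gives about 1 in 20 for a single set. The 36 sets share the same 16 libraries and are not independent, so their count is a description only. In 4 of these it was library 11 among untreated empty-vector libraries. There Phgdh had 636.7 CPM, against 340.3 to 370.4 CPM in libraries 9, 10 and 12. Psat1 had 644.4 CPM in library 11, against 386.4 to 417.2 CPM. Mthfd2 had 88.0 CPM in library 11, against 59.5 to 62.0 CPM. Mthfd1l had 47.7 CPM in library 11, against 134.3 to 139.7 CPM. These distances depend on the scale. In FPKM library 11 lay nearer to libraries 9, 10 and 12 for Phgdh (273.08, against 209.88 to 226.78). The same held for Psat1 (193.77, against 167.66 to 180.55) and Mthfd2 (34.94, against 33.01 to 34.37). Mthfd1l stayed far from them (10.02, against 40.56 to 42.71). The other 2 of the 6 sets were in library 4 of the untreated CLIC4-lentivirus libraries, which had the lowest total count (47.1 M). Phgdh had 332.5 CPM there, against 303.2 to 304.9 CPM in libraries 1 to 3. Psph had 18.6 CPM in library 4, against 16.6 to 16.7 CPM.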

How the results depend on the processing

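Across the alternatives, the number of enzymes called higher with the empty vector was 5 to 9 of 9 with H2O2 and 6 to 9 of 9 untreated, and 6 to 9 and 7 to 9 when each library was left out in turn. Over the same settings the share of all genes in the fit called higher was 12.2 to 39.8% with H2O2 and 12.3 to 40.8% untreated, and 19.7 to 36.6% and 25.1 to 37% with a library left out. No alternative called an enzyme lower, and none called an enzyme for H2O2 or, where it gave an adjusted p, for the difference of the responses. For that difference Psph and Shmt1 had an adjusted p in 10, and Mthfd2 in 11, of 12 alternatives beside leaving out each library. The missing ones were from DESeq2. Mthfd2, Asns, Shmt2, Psat1 and Psph were called higher in every alternative. Leaving out library 11 was the only omission that changed a call: it added Shmt1 and Mthfd1l in both conditions and Phgdh with H2O2. Phgdh untreated lost its call with the compared groups alone (0.46, adjusted p = 0.135), and Mthfd1 lost its calls with the 3 limma fits on FPKM of all 16 libraries (log2 0.22 to 0.23 untreated, 0.33 to 0.34 with H2O2; adjusted p from 0.0702 to 0.289) and kept them on log2(FPKM + 1) without library 11. The cause was not tested. Combinations of an alternative with the omission of library 11 were chosen after seeing the data. With the filter on low values, FPKM moved the median of all genes for H2O2 in empty-vector cells to 0.11 or 0.14 log2, and for the difference of responses to 0.11 or 0.14, with 16 libraries (0.0036 and 0.0052 without the filter). The ratio of Mthfd2 over Mthfd1 was lower in CPM than in FPKM in each group. No paired analysis was possible because the groups share no library number. Counts limit Mthfd2 (at least 306 a library) and Shmt1 (at least 366) most.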
